A study of Mus musculus with 32 samples.

Results

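The comparison concerns the later course of disease in the spinal cord of CHMP2Bintron5 mice: 6 libraries at 10-12 months against 4 at 6 months, which are 10 of the 32 libraries of the series and were chosen by the genotype and age in their labels. The mice came from crosses between the strains FVB/N, C57BL/6 and DBA/2, and the transgenic animals carried 12 copies of CHMP2Bintron5. Non-transgenic controls of the same ages, 5 at 6 months and 6 at 10-12 months, are set beside them. The older age is labelled as a range of 10 to 12 months, while the text on the study's design gives 12 months. Polyadenylated RNA of frozen cord was sequenced from 500 ng of total RNA per library, and the deposited values are read counts per gene. The sources used here name neither the promoter that drives the transgene nor the number of animals behind a library, so p-values measure the spread between these libraries.

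ESCRT-III, of which the CHMP2B protein is a part, pinches membranes off into the lumen of endosomes and so sends cargo to lysosomes. The intron 5 form is a truncated protein made from a splice-site mutation found in familial frontotemporal dementia, and it disturbs the maturation of endosomes and autophagosomes. Phagocytic microglia and macrophages, which clear cellular debris through lysosomes, and reactive astrocytes, which make more of the filament protein GFAP, are the usual glial responses to neuron loss in the cord.

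Between 6 and 10-12 months few genes were called in transgenic cord. Among those called higher were Gpnmb and Atp6v0d2, a pair of genes of lysosome-rich myeloid cells, at 3.70 and 7.01 times their level at 6 months. Neither was called in edgeR when replicates 2 and 3 at 6 months were left out, and Atp6v0d2 had only 5 to 14 counts per library at 6 months. Nor was either called when p was adjusted without 90 genes that stood high in these 2 replicates (adjusted p = 0.190 for both, edgeR). Of 46 genes of the interferon response 42 had a log2 fold change below 0, with 0 members past the test. Lists of motor neuron, synaptic, myelin, ESCRT and lysosomal genes had medians between -0.02 and 0.08 on the log2 scale, and Atp6v0d2 was the 1 gene called among them.

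The libraries held 36169270 to 72036241 counts at 6 months and 31565428 to 48178311 at 10-12 months. The mitochondrial share was 3.49% ± 0.243 (SD, n = 4) and 3.51% ± 0.304 (SD, n = 6), and the difference had a 2-sided exact permutation p of 0.924 (adjusted p = 0.971 over 4 library measures, with a smallest possible p of 0.00476). Markers of the labelled tissue were present, with Hoxc8, a gene of trunk position, at 21.6 CPM and Chat, the acetylcholine-synthesizing enzyme of motor neurons, at 21.1 CPM in the mean at 6 months. CPM is the count scaled to a common library size by the trimmed mean of M-values, and it compares libraries for a gene, not genes of different length. Xist, the RNA of the inactive X chromosome, was at 4.81 CPM in replicate 4 at 6 months and at 760 CPM or more in the other 9 transgenic libraries, so 1 library differed from the rest in this sex marker. Kdm5d, a gene of the Y chromosome, was at 1.59 to 2.64 CPM at 6 months and 2.04 to 2.98 CPM at 10-12 months. Replicate 4 at 6 months had 2.64 CPM, within the range of the libraries with high Xist. Kdm5d therefore did not separate this library from the rest, and its values cannot show which libraries carry a Y chromosome. Of 6 sex-linked genes listed, only 4 were tested. The sex of the animals was not tested. Acta1, skeletal muscle actin, was at 32.1 CPM in replicate 1 at 6 months and at 112 CPM in replicate 3 at 10-12 months, with at most 8.34 CPM in the other 8. The 3 genes fixed as checks did not pass the test. Chmp2b was at 65.8 ± 6.31 and 66.8 ± 8.73 CPM, Thy1 at 1511 ± 31.4 and 1533 ± 190 CPM, and Chrna2 at 0.655 ± 0.111 and 0.686 ± 0.119 CPM at 6 and 10-12 months (mean ± SD). Whether reads of the transgene fall on the mouse Chmp2b gene was not tested.

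Replicates 2 and 3 at 6 months carried transcripts of dorsal root ganglion, the ganglia of sensory neurons beside the cord. Avil, which encodes the actin-binding protein advillin of sensory neurons, was at 59.9 and 146 CPM in these replicates, at 0.830 and 0.966 CPM in replicates 1 and 4, and between 0.525 and 1.16 CPM at 10-12 months. Calca, the precursor of the neuropeptide CGRP, was at 159 and 219 CPM in the pair against 61.2 and 95.7 CPM in replicates 1 and 4. Both replicates thus stood above the rest, and replicate 3 stood above replicate 2. In all, 90 genes had both replicates above each of the other 30 libraries with the lower of the pair at least 1.5 times the highest of the others, and these were set apart. They include 16 of the 26 tested genes of a dorsal root ganglion list, among them the sodium channels Scn9a and Scn11a, the channels P2rx3 and Trpv1 and the transcription factor Pou4f1. Over the 90 genes the level in replicate 3 was 1.82 times that in replicate 2 in the median, and the mean at 10-12 months was 1.02 times that of replicates 1 and 4.

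Most calls of a plain comparison of the ages were among these genes. Over all 20015 tested genes edgeR's quasi-likelihood test called 7 genes higher (0.035%) and 62 lower (0.31%) at 10-12 months (Benjamini-Hochberg adjusted p under 0.05), and 54 of the 62, or 87.1%, were set apart. Among the other 19925 genes, 7 were higher (0.0351%) and 8 lower (0.0402%). At an unadjusted p under 0.05 the counts were 394 (1.98%) and 532 (2.67%). These 15 calls (0.0753%) rest on an adjustment that runs over all tested genes, the set-apart ones included. When the p-values of the 19925 genes alone were adjusted, edgeR called 0 genes, with a lowest adjusted p of 0.190, while DESeq2 called 9 higher and 8 lower. Without replicates 2 and 3 the same test called 0 genes, with 277 higher (1.35%) and 350 lower (1.71%) at an unadjusted p under 0.05, and only 2 libraries then stood for 6 months.

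**Figure D1:**
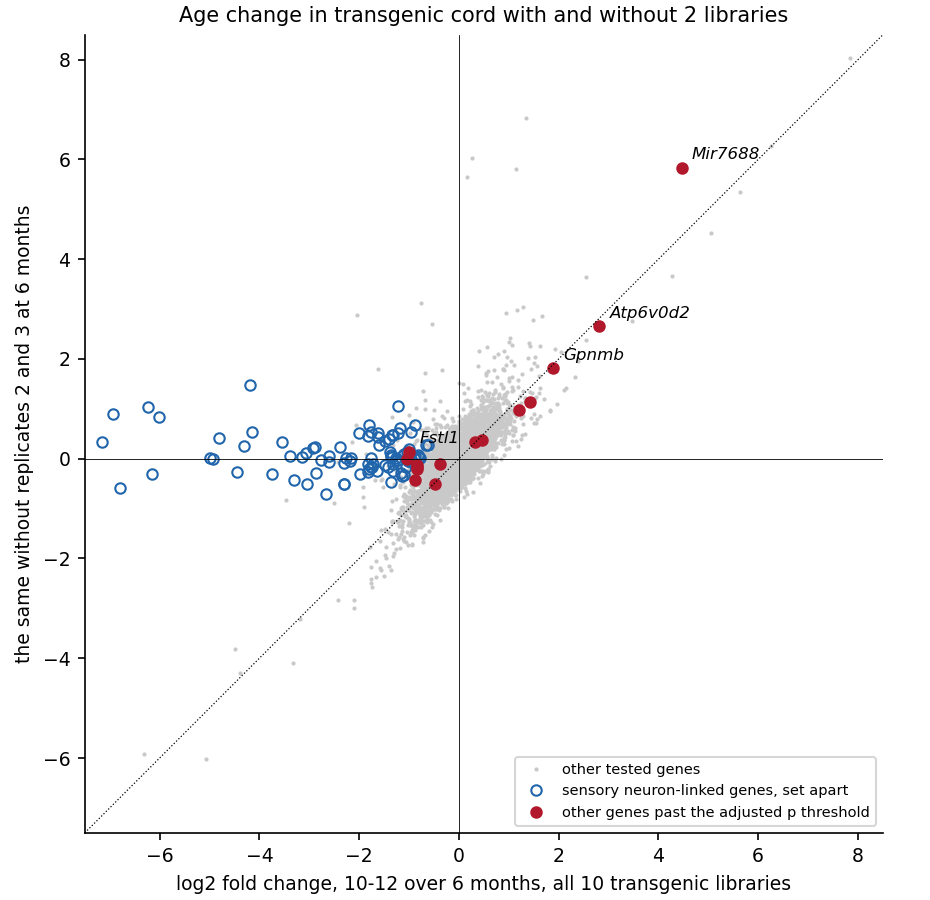
Each point is a tested gene; the x axis is its log2 fold change, 10-12 over 6 months, with all 10 transgenic libraries, and the y axis is the same without replicates 2 and 3 at 6 months. The 90 set-apart genes (open circles) spread along the x axis to -7.16 and lie around 0 on the y axis, while Gpnmb and Atp6v0d2 lie near the dotted line of equal values.

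Gpnmb encodes a transmembrane glycoprotein of lysosomes and phagosomes that is made by lipid-laden microglia and macrophages (chromosome 6, 49036546 to 49070929, plus strand, GRCm38). Its level was 2.19, 2.54, 1.59 and 2.34 CPM in replicates 1 to 4 at 6 months, and at 10-12 months the lowest, median and highest of 6 libraries were 3.70, 7.85 and 12.9 CPM. All older libraries lay above all younger ones, and the replicates with ganglion transcripts were the highest and the lowest of the 6-month group. On the log2 scale the gene rose by 1.89 ± 0.40 (SE, adjusted p = 0.0246 in edgeR), and the value was 1.82 without that pair. Control cord had 1.17 ± 0.384 CPM at 6 months and 1.72 ± 0.440 CPM at 10-12 months (mean ± SD, n = 5 and 6), a log2 difference of 0.54 ± 0.37 (adjusted p = 0.929, edgeR). The age change in transgenic cord exceeded that in controls by 1.35 ± 0.53 (unadjusted p = 0.0169), which did not pass after adjustment (adjusted p = 1, edgeR).

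Atp6v0d2 encodes the d2 subunit of the membrane sector of the vacuolar proton pump, which acidifies lysosomes, and is known from osteoclasts and macrophages (chromosome 4, 19876841 to 19922605, minus strand, GRCm38). It was rare at 6 months, with 0.192, 0.192, 0.111 and 0.188 CPM, or 9, 7, 5 and 14 counts. At 10-12 months the lowest, median and highest were 0.745, 1.31 and 1.73 CPM, from 30 to 67 counts per library. The ages did not overlap in transgenic cord, whereas controls were at 0.203 ± 0.165 CPM and 0.216 ± 0.0645 CPM. It rose by 2.81 ± 0.57 on the log2 scale (SE, adjusted p = 0.0181 in edgeR), and the value was 2.66 without replicates 2 and 3. The difference from the age change of controls was 2.70 ± 0.81 with an unadjusted p of 0.00226, which did not pass after adjustment (adjusted p = 0.720, edgeR). With p adjusted over the genes not set apart, Gpnmb and Atp6v0d2 both had an adjusted p of 0.190 in edgeR and 0.00513 in DESeq2.

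**Figure D2:**
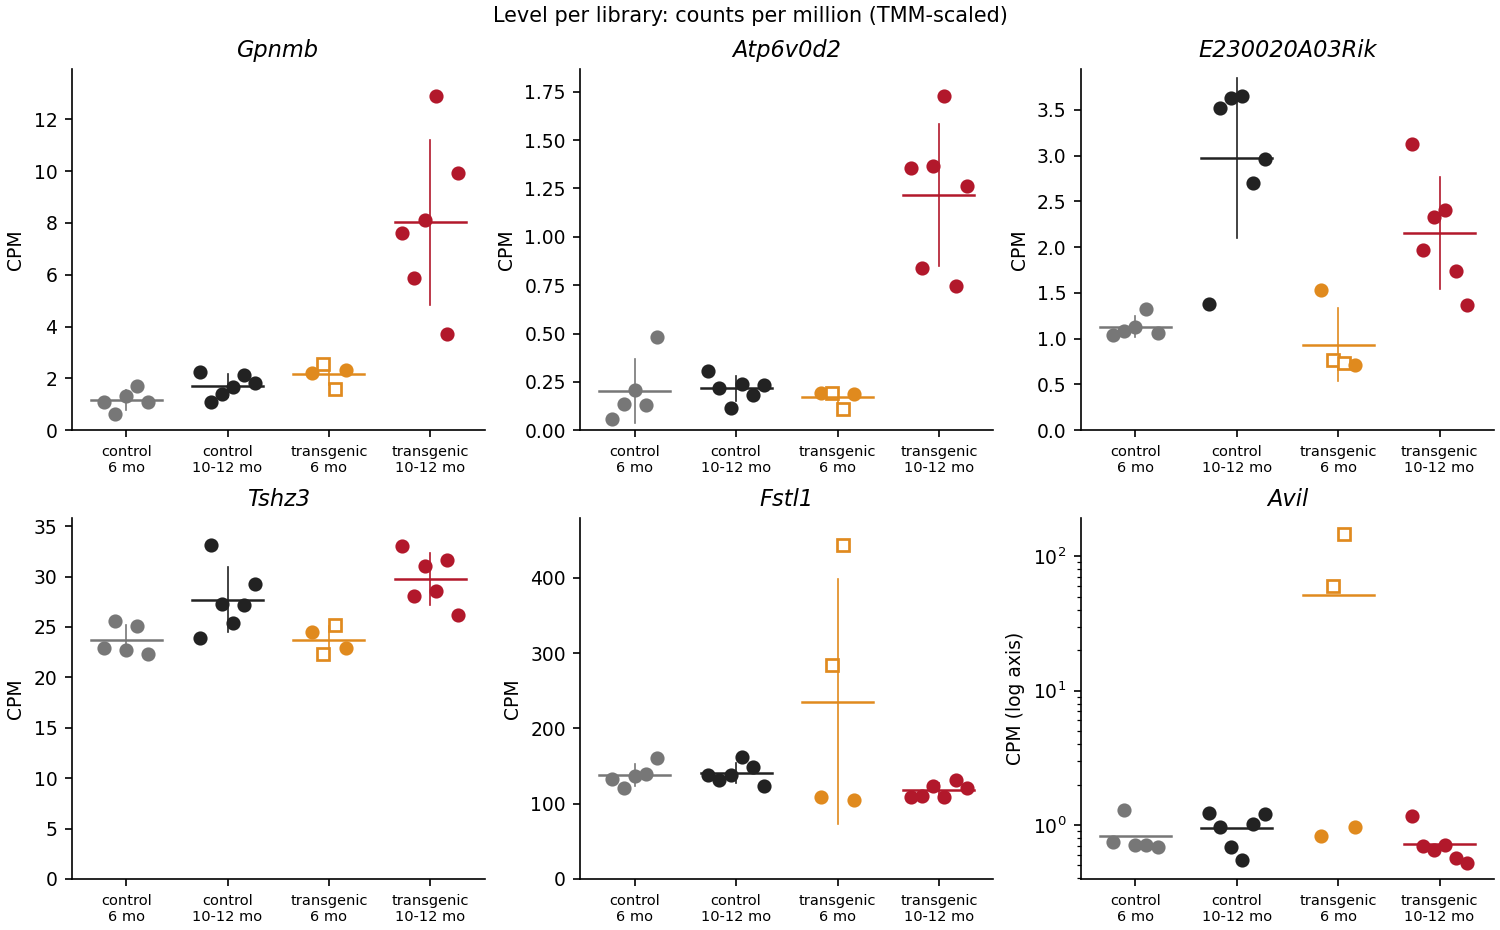
Each point is a library, horizontal lines are group means and vertical lines 1 SD on either side (Avil has a log axis and no SD); open squares are replicates 2 and 3 at 6 months, and the y axes are CPM. Gpnmb and Atp6v0d2 are high in all 6 transgenic libraries at 10-12 months, the means of E230020A03Rik and Tshz3 are higher at the older age in both genotypes, and the open squares alone lift Fstl1 and Avil.

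Other genes of phagocytic microglia gave a mixed picture. In a list of 29 tested genes of disease-associated microglia, Gpnmb was the 1 gene called higher and 0 were called lower. At an unadjusted p under 0.05 edgeR gave 4 members higher, Gpnmb included, and 2 lower. The median log2 fold change was 0.07, with 21 of 29 members above 0, against a median of -0.00 over the 19925 genes. Itgax, the integrin CD11c, was at 2.66, 1.18, 1.02 and 1.29 CPM at 6 months and between 1.76 and 3.38 CPM at 10-12 months, and its difference of 0.87 did not pass (adjusted p = 0.875, edgeR). Replicate 1, with muscle transcripts, was the high one at 6 months and overlapped the older libraries. Lgals3, the galactose-binding lectin of phagocytes, differed by 0.58 ± 0.21 (adjusted p = 0.590, edgeR). Lpl, lipoprotein lipase, had all 6 older libraries above the 4 younger ones (10.3 to 13.02 CPM against 6.15 to 10.3 CPM). So had Mmp12, a macrophage metalloprotease from the extracellular matrix list (0.920 to 1.79 CPM against 0.274 to 0.873 CPM), and neither passed the test. Clec4a1, from a pan-myeloid list, had all 6 older libraries below the 4 younger ones (0.490 to 0.814 CPM against 0.9065 to 1.36 CPM). It did not pass either (adjusted p = 0.320, edgeR). Over all genes not set apart, 80 (0.402%) had the older libraries all above the younger ones and 76 (0.381%) all below. The homeostatic microglial list had 0 of 18 members called (1 higher and 0 lower at an unadjusted p under 0.05, edgeR) and a median of 0.13, and Cx3cr1, the fractalkine receptor of microglia, was at 36.4 ± 3.40 and 38.2 ± 2.81 CPM.

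Of 41 tested lysosomal genes, Atp6v0d2 was the 1 called higher and 0 were called lower, and the median was 0.02. No other lysosomal hydrolase or membrane protein of the list passed the test. Ctsl, the protease cathepsin L, differed by -0.32, with 153 and 202 CPM in replicates 2 and 3 against 115 and 109 CPM in replicates 1 and 4, and by 0.05 without that pair. The 28 tested genes of the ESCRT machinery had a median of -0.02 and 0 calls, as had 25 autophagy genes with a median of -0.01. Among 32 genes linked to amyotrophic lateral sclerosis and frontotemporal dementia the median was 0.00 with 0 calls. Each of these 3 lists also had 0 members at an unadjusted p under 0.05 in edgeR.

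Of the 7 genes called higher, 3 come from the locus of Tshz3, a zinc finger homeobox transcription factor (chromosome 7, 36698118 to 36773553, plus strand, GRCm38). Tshz3 was at 24.5, 22.3, 25.2 and 22.9 CPM at 6 months and between 26.2 and 33.1 CPM at 10-12 months, without overlap, and rose by 0.33 ± 0.08 (adjusted p = 0.0467, edgeR). The unprocessed transcript models Gm38340 (36721846 to 36725853) and E230020A03Rik (36727177 to 36729562) lie inside Tshz3 on the same strand and overlap none of its exons. They rose by 1.43 ± 0.33 and 1.21 ± 0.27 (adjusted p = 0.0463 and 0.0313, edgeR), and reads of these models cannot be told apart from unspliced Tshz3 RNA. The same models had higher means at the older age in controls, where Gm38340 differed by 1.12 ± 0.29 and E230020A03Rik by 1.39 ± 0.24 (adjusted p = 0.409 and 0.0627, edgeR). E230020A03Rik went from 1.13 ± 0.113 to 2.98 ± 0.875 CPM in controls and from 0.935 ± 0.399 to 2.16 ± 0.613 CPM in transgenic cord. Gm37827, a further model inside Tshz3 that was chosen after its values were seen, differed by 1.16 in transgenic and 1.50 in control cord without passing. The values of the locus thus point the same way in both genotypes, and the difference between them was -0.18 ± 0.35 for E230020A03Rik (adjusted p = 1, edgeR).

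The other calls in this direction have little annotation. ENSMUSG00000097348, which the annotation used here does not hold, was at 16.9 to 20.2 CPM at 6 months and 21.3 to 30.0 CPM at 10-12 months, a log2 fold change of 0.46 ± 0.09 (adjusted p = 0.0223, edgeR). Mir7688, a microRNA hairpin model, had 1, 4, 0 and 0 counts at 6 months and 40, 38, 37, 35, 4 and 1 counts at 10-12 months, so 2 of the older libraries fell within the range of the younger group. Control cord had 0.685 ± 0.210 CPM of it at 6 months and 0.651 ± 0.484 CPM at 10-12 months, against 0.0327 ± 0.0521 and 0.620 ± 0.445 CPM in transgenic cord. The 6-month transgenic group had the lowest mean of these 4 groups, and a library from polyadenylated RNA does not measure the mature microRNA.

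Genes of cholesterol synthesis had lower means at the older age in both genotypes. All 25 tested members of the list had a log2 fold change below 0 in transgenic cord, against 51.7% of the 19925 genes below 0. The median was -0.17 in transgenic cord and -0.16 in controls, where 23 of 25 lay below 0. Msmo1, the sterol methyl oxidase, was at 129.5, 106, 105 and 110 CPM at 6 months and between 86.9 and 105 CPM at 10-12 months, with all older libraries below the younger ones and a difference of -0.17 ± 0.10 that did not pass (adjusted p = 0.9998, edgeR). The summed CPM of the list was 1977 to 2252 at 6 months and 1778 to 1927 at 10-12 months in transgenic cord, and 2256 to 2714 and 2048 to 2361 in controls. The list's median was -0.12 without replicate 1 at 6 months and -0.11 without the 2 libraries with muscle transcripts.

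**Figure D3:**
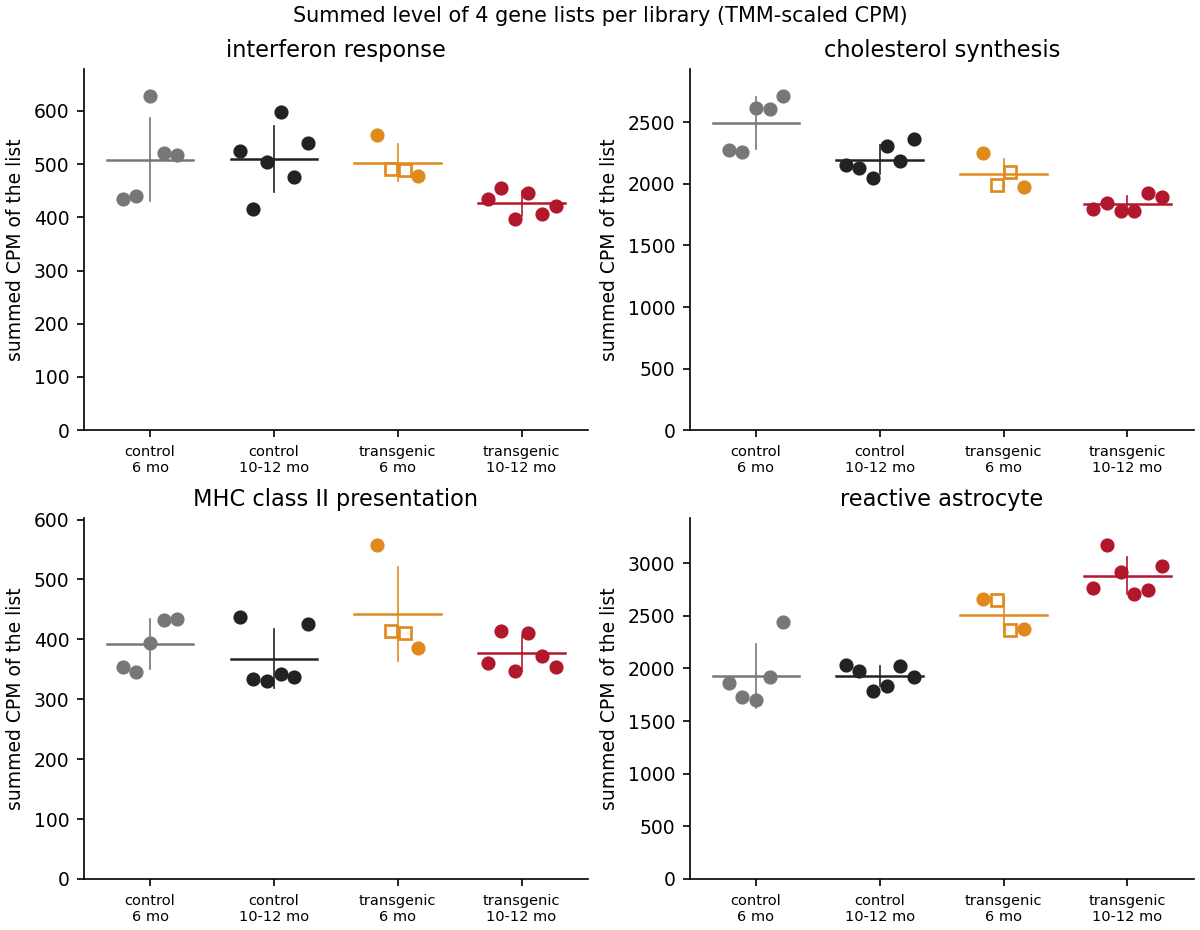
Each point is the summed CPM of a gene list in a library, horizontal lines are group means and vertical lines 1 SD on either side; open squares are replicates 2 and 3 at 6 months. In transgenic cord the interferon and cholesterol lists do not overlap between the ages (lower at 10-12 months), nor does the reactive astrocyte list (higher), and the highest MHC class II value at 6 months is replicate 1 with 558. Of all 52 lists, 49 overlap between the ages in transgenic cord.

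Of the 8 genes called lower, 7 stood high in the libraries with ganglion transcripts. Fstl1, a secreted glycoprotein that sensory neurons make, was at 108, 285, 444 and 106 CPM in replicates 1 to 4 at 6 months and between 109 and 132 CPM at 10-12 months. Its log2 fold change was -1.001 ± 0.22 (adjusted p = 0.0325, edgeR) and 0.14 without replicates 2 and 3. The same 2 replicates were the highest of the 10 transgenic libraries for Grik1, the kainate receptor subunit GluK1, for Nt5e, the ectonucleotidase CD73, for Nrn1, which encodes neuritin, and for Lix1, Adamts8 and Hsbp1l1. Without the pair the log2 fold change went from -1.04 to -0.00 for Lix1, from -0.83 to -0.12 for Grik1, from -0.84 to -0.20 for Nt5e and from -0.37 to -0.10 for Nrn1. It went from -0.84 to -0.16 for Hsbp1l1 and from -0.88 to -0.43 for Adamts8. Exons of Adamts8 and Nrn1 overlap a gene on the opposite strand, and the strand setting of the counting is not given, so reads of both partners cannot be told apart.

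Most genes of the interferon response had lower levels at 10-12 months in transgenic cord. Of 46 tested members 42 had a log2 fold change below 0, and the median was -0.27, against -0.01 in controls, where 24 of 46 were below 0. edgeR called 0 members, with a lowest adjusted p of 0.156, and 16 members lower and 0 higher at an unadjusted p under 0.05. The summed CPM of the list was 477 to 554 at 6 months and 396 to 454 at 10-12 months in transgenic cord, without overlap, while controls had 435 to 628 and 416 to 598. Of the 52 list sums, 49 overlapped between the ages in transgenic cord. Mx1, Ifi44, Oasl2, Parp14 and Ifi27l2a, 5 of the 46, had all older libraries below all younger ones, or 10.9% against 0.381% of all genes. Oasl2, a member of the 2'-5' oligoadenylate synthetase family, was at 12.9, 12.4, 13.7 and 11.4 CPM at 6 months and between 8.12 and 9.85 CPM at 10-12 months, with controls at 11.4 ± 2.13 and 11.2 ± 2.79 CPM. Ifi44 was at 0.979 to 1.204 CPM and then 0.360 to 0.772 CPM, with controls at 1.41 ± 0.252 and 1.40 ± 0.364 CPM. Oasl2 differed by -0.50 ± 0.25 and Ifi44 by -0.97 ± 0.36, and neither passed (adjusted p = 0.9998 and 0.614, edgeR). At an unadjusted p under 0.05 Ifi44 was lower and Oasl2 was not (edgeR). Isg15, the ubiquitin-like modifier that interferon induces, was at 4.36, 5.28, 3.23 and 4.07 CPM and then 1.63 to 3.43 CPM, with an overlap of the ranges and a difference of -0.79 ± 0.23 (adjusted p = 0.239, edgeR). The list's median was -0.33 without replicates 2 and 3, -0.26 without replicate 1 and -0.22 without both libraries with muscle transcripts. The difference of the age changes was called for 0 members.

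Interferon acts on many of these genes through the interferon-stimulated response element in their promoters. The motif GAAANNGAAA, searched on both strands in the 250 bases before each gene start of the RefSeq table (GRCm38.p6), was present in 18 of the 37 windows of the list, or 48.6%, against 2.98% of all 32851 windows. The windows belong to 31 of the genes, and the motif was chosen after the values were seen. The 3 listed genes with a match and the smallest p in the age comparison are Isg15, Stat2, a transcription factor that interferon activates, and Igtp, an interferon-inducible GTPase. Their windows are shown 5′ to 3′ on the strand of the gene with the motif in capitals, to place the element in genes of the group: Isg15 is chr4:156200819-156201068 (minus strand), Stat2 chr10:128270248-128270497 (plus strand) and Igtp chr11:58199306-58199555 (plus strand).
Isg15: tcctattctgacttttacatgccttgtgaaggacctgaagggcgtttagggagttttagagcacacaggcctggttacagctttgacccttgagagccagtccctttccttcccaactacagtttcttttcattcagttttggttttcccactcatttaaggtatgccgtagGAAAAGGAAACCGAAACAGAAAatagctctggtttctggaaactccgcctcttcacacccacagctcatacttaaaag
Stat2: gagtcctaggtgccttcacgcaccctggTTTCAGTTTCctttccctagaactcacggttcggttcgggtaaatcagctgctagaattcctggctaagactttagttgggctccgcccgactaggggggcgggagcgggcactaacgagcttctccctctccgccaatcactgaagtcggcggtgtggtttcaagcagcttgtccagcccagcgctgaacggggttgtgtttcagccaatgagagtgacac
Igtp: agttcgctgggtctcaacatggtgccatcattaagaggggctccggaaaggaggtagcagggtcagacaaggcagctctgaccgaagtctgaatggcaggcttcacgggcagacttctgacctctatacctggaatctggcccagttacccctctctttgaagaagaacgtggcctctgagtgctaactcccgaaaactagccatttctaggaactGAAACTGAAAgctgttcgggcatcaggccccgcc
The Isg15 window holds 3 overlapping matches and the others 1 each, with the match of Stat2 on the opposite strand. Stat2 was at 46.9, 41.4, 46.5 and 48.9 CPM at 6 months and between 34.7 and 46.8 CPM at 10-12 months, a difference of -0.23 ± 0.09 (adjusted p = 0.785, edgeR). Igtp was at 23.1, 10.7, 12.1 and 11.4 CPM and then 5.45 to 14.5 CPM, a difference of -0.67 ± 0.30 (adjusted p = 0.868, edgeR), with replicate 1 far above the others at 6 months. A match describes the sequence only.

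Antigen presentation genes lay lower too, again without a call. Of 23 tested genes of MHC class I presentation 22 were below 0, with a median of -0.18 (-0.03 in controls), and of 16 genes of MHC class II presentation 14 were below 0, with a median of -0.31 (-0.20 in controls). At an unadjusted p under 0.05 edgeR gave 4 class I and 5 class II members lower and 0 higher. H2-Ab1, a class II chain of antigen-presenting cells, was at 38.8, 18.9, 20.7 and 17.5 CPM at 6 months and between 9.64 and 18.5 CPM at 10-12 months. Replicate 1 was the high library, and the difference of -0.83 ± 0.29 did not pass (adjusted p = 0.531, edgeR). Cd74, the invariant chain of class II, had the same high replicate with 121 CPM and differed by -0.62 ± 0.28 (adjusted p = 0.908, edgeR). The class II median was -0.17 without replicate 1 at 6 months and -0.16 without the 2 libraries with muscle transcripts, which for class I gave -0.10. The part of the muscle transcripts in these values was not tested, and in bulk tissue fewer cells of a type and less RNA per cell cannot be told apart.

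Gfap, the intermediate filament of astrocytes, was at 1699, 1460, 1141 and 1367 CPM at 6 months and between 1656 and 2068 CPM at 10-12 months. Only replicate 1 at 6 months reached the older range, and the difference of 0.35 ± 0.11 did not pass (adjusted p = 0.325, edgeR), while controls were at 1023 ± 198 and 1040 ± 96.5 CPM. The reactive astrocyte list had 0 of 30 members called (3 higher and 3 lower at an unadjusted p under 0.05, edgeR) and a median of -0.05, which was 0.16 without replicates 2 and 3. The summed CPM of the list was 2362 to 2656 at 6 months and 2709 to 3175 at 10-12 months, without overlap (49 of the 52 list sums overlapped), and Gfap is the largest part of the sum. Of 20 genes of the glucocorticoid response, 0 were called (6 higher and 0 lower at an unadjusted p under 0.05, edgeR), 17 were above 0 and the median was 0.23 (0.09 in controls), with a median of 0.10 without replicate 6 at 10-12 months. Fkbp5, a chaperone that glucocorticoids induce, was at 26.7 to 37.0 CPM at 6 months and had a lowest, median and highest of 29.9, 49.8 and 113 CPM at 10-12 months, with replicate 6 as the highest. Zbtb16, a glucocorticoid-induced zinc finger gene, did not overlap between the ages (9.19 to 11.7 CPM and 13.5 to 42.2 CPM) and differed by 1.28 ± 0.42 (adjusted p = 0.372, edgeR).

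**Figure D4:**
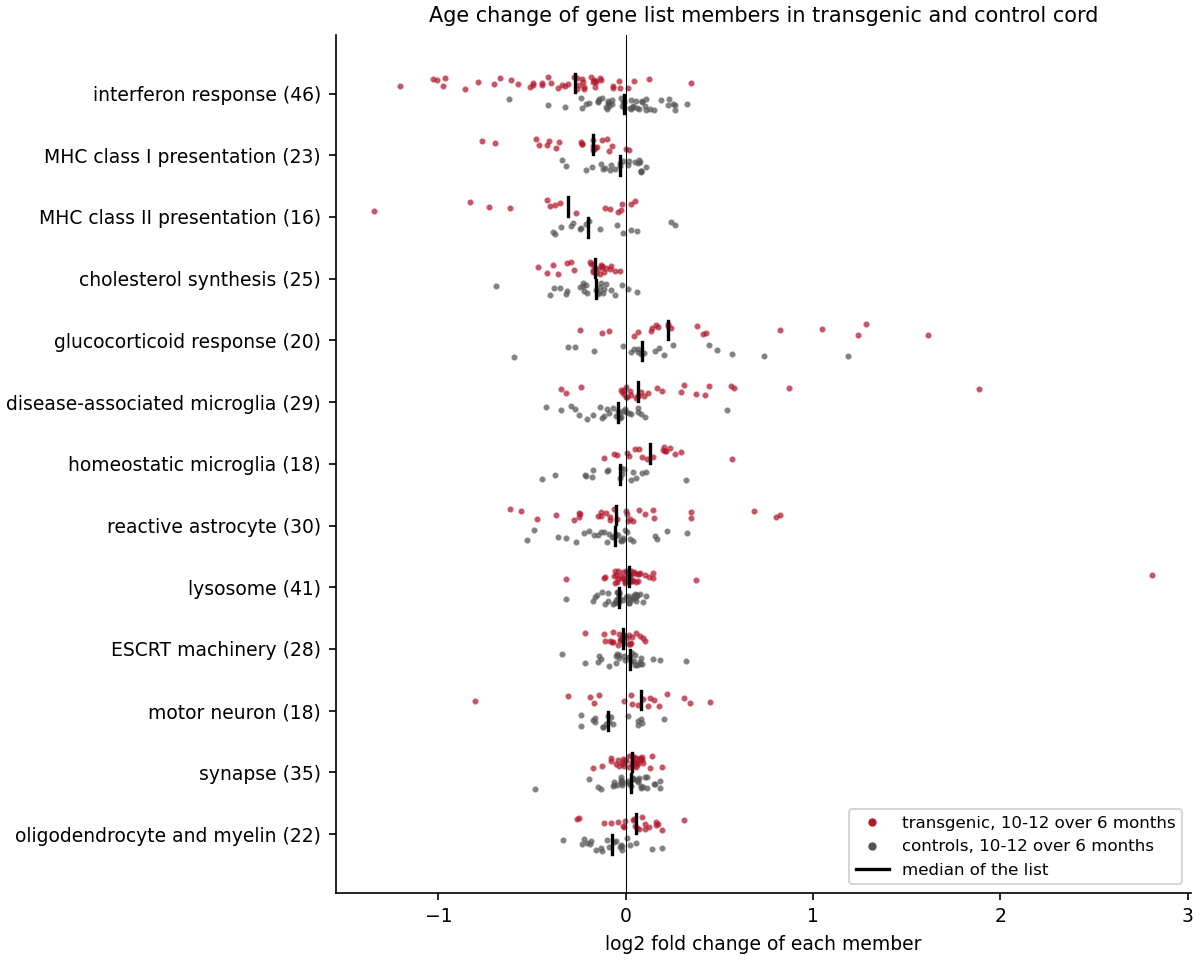
Each point is a member of the gene list named on the left (number of members in brackets), and the x axis is its log2 fold change, 10-12 over 6 months, in transgenic (red) and control (grey) cord; black bars are list medians. The interferon list lies to the left of 0 in transgenic cord (median -0.27) and around 0 in controls (median -0.01), the cholesterol list lies to the left in both, and Atp6v0d2 and Gpnmb are the far points of the lysosome and disease-associated microglia lists.

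Neuronal and myelin genes differed little between the ages. The 35 tested synaptic genes had a median of 0.04 with 0 called and 0 at an unadjusted p under 0.05, and Snap25, a presynaptic fusion protein, was at 2228 ± 149 and 2320 ± 287 CPM. Of the 21 tested motor neuron genes 3 were set apart, and the other 18 had a median of 0.08 with 0 calls (3 higher and 2 lower at an unadjusted p under 0.05). Chat was at 24.0, 24.5, 18.3 and 17.5 CPM at 6 months and between 21.1 and 35.3 CPM at 10-12 months, a difference of 0.34 ± 0.14 (adjusted p = 0.785, edgeR). The list of 27 genes of the axonal cytoskeleton and transport had a median of -0.01, and that of 22 oligodendrocyte and myelin genes a median of 0.05, both with 0 calls in edgeR (1 lower and 0 members at an unadjusted p under 0.05). Mbp, myelin basic protein, was at 8243 ± 341 and 8462 ± 1200 CPM. Of 36 cytokine and chemokine genes 31 were tested, with a median of -0.01 and 0 calls (1 higher and 1 lower at an unadjusted p under 0.05, edgeR). DESeq2 called the same number of members as edgeR in every list described here.

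Ageing of the control cord between the same ages gave 0 calls in edgeR (0%, with 529 genes higher, or 2.64%, and 425 lower, or 2.12%, at an unadjusted p under 0.05), and 4 higher and 3 lower in DESeq2. Among the genes not set apart, the difference of the age changes between the genotypes was called for 0 genes in edgeR, with 202 higher (1.01%) and 309 lower (1.55%) at an unadjusted p under 0.05, and for 1 higher and 0 lower in DESeq2. The gene that DESeq2 called is Mir7688, with a log2 difference of 4.56 (adjusted p = 0.0481 in DESeq2 and 0.569 in edgeR). Over all tested genes the difference was called in edgeR for 1 (0.005%), the set-apart gene Avil. DESeq2 also called set-apart genes beside Avil, among them P2rx3, Trpv1 and Scn11a (adjusted p = 0.0173, 0.00178 and 0.00347). P2rx3, Trpv1 and Scn11a were not called in edgeR (adjusted p = 0.233, 0.184 and 0.711). All set-apart genes, Avil included, were chosen for high levels in the younger transgenic replicates with ganglion transcripts. Their difference of the age changes is thus built into the choice, and these p-values cannot test an effect of genotype. The comparisons share no libraries between the genotypes, and each fit used all 32 libraries to estimate the spread.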

How the data were processed

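Reads of spinal cord RNA libraries (a stranded mRNA kit, per the labels' protocols) were processed with bcl2fastq 2.17.1.14, TopHat2 2.0.14, Bowtie2 2.1.0 and HTSeq 0.6.1 on mm10, per the submitters' processing notes. The authors deposited raw read counts per Ensembl gene, and the strand setting of the counting is not stated in what was used here. Of 45706 identifiers, 45143 matched GENCODE M21 (GRCm38), and the other 563 held 0.0788% of counts. Genes passed edgeR 4.0.16's filter (minimum count 10, minimum total 15), leaving 20015. Counts were scaled by TMM and fitted with edgeR's quasi-likelihood model over 6 groups and all 32 libraries (R 4.3.3), with Benjamini-Hochberg adjustment and a threshold of 0.05. Depth ranges stand in the report. Scripts were tested on simulated data.

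Genes linked to dorsal root ganglion were set apart by the CPM rule given in the report, which uses the 6-month libraries themselves. The 52 gene lists hold 1078 genes, of which 1053 were tested. Members and lists were chosen with earlier results of these data known. Named genes are Chmp2b, Thy1 and Chrna2, up to 15 called genes in each direction with a symbol, at least 1 CPM and a shared sign without replicates 2 and 3, up to 4 called members (otherwise the 2 of highest CPM) of each list, up to 6 of each other comparison, and 8 set-apart genes. Other genes named, Fstl1, Mir7688, ENSMUSG00000097348 and the models in Tshz3 among them, were chosen after their values were seen. Groups were compared for library measures by exact permutation over 210 splits. Alternatives were DESeq2 1.42.0 and its size factors, other filters, transgenic libraries alone, the replicate number as a block, offsets for GC content and length, and left-out libraries. A covariate of Avil level, leaving out the libraries with muscle transcripts, and adjustment over the genes not set apart were added after seeing the data. Values of some individual genes are not reported here.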

Additional observations from a re-analysis of the deposited data

Results flagged for a closer look

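A library was marked where its gap to the nearest other library exceeded Dixon's 95% critical value for its group. This was done for 47 genes, 5 library measures and 12 list sums in the 2 transgenic groups, and 19 of 128 groups were marked. Chance alone marks about 1 in 20 for independent items chosen in advance. Some of these genes were chosen after their values were seen, and some are members of the lists. The number marked can therefore not be read against that rate. Replicate 1 at 6 months stood above the other 3 libraries for the MHC class II list (558 summed CPM against 385 to 414), H2-Ab1 (38.8 CPM against 17.5 to 20.7), Igtp (23.1 CPM against 10.7 to 12.1), Ifi27l2a (3.98 CPM against 2.63 to 2.85) and Itgax (2.66 CPM against 1.02 to 1.29). The same replicate stood above the others for Acta1 (32.1 CPM against 2.24 to 3.45), the skeletal muscle list (322 summed CPM against 128 to 161) and E230020A03Rik (1.53 CPM against 0.711 to 0.766). Replicate 3 at 10-12 months stood above the rest for Acta1 (112 CPM against 1.92 to 8.34) and the skeletal muscle list (1038 summed CPM against 121 to 189), and less far for Grik1 (15.3 CPM against 12.2 to 13.3).

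Replicate 6 at 10-12 months was high for Fkbp5 (113 CPM against 29.9 to 55.1) and Plin4, a lipid droplet protein (194 CPM against 15.4 to 59.9). Replicate 2 at 10-12 months was high for the MHC class I list (1951 summed CPM against 1649 to 1745) and the lysosome list (8640 against 7551 to 7943). Replicate 4 at 10-12 months was low for Msmo1 (86.9 CPM against 102 to 105), and replicate 1 was high for Avil (1.16 CPM against 0.525 to 0.710). At 6 months, replicate 4 was low for Xist (4.81 CPM against 910 to 1007) and replicate 3 for Atp6v0d2 (0.111 CPM against 0.188 to 0.192).

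Avil was the gene whose age change differed between the genotypes in edgeR, by -6.33 on the log2 scale (adjusted p = 0.0309). It is one of the set-apart genes, and its level at 6 months rests on replicates 2 and 3. Its p-value therefore cannot test an effect of genotype.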

How the results depend on the processing

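Against 7 genes higher and 8 lower at 10-12 months in transgenic cord, DESeq2 gave 15 and 27, GC and length offsets 11 and 27, and the fit without muscle-bearing libraries 3 and 43. The transgenic libraries alone gave 2 and 0. The covariate of Avil level, an adjusted p under 0.01, the fit without replicates 2 and 3 at 6 months, and adjustment over the genes not set apart (with and without GC offsets) gave 0 and 0. Without a filter 19 genes were lower. Genes set apart at any excess left 2 lower, at 3 times 35, and with none set apart 62. The cause of these shifts was not tested. Leaving out 1 library gave 0 to 12 higher (0 without replicate 3 and 12 without replicate 1 at 6 months) and 0 to 64 lower (64 without replicate 1 at 6 months). With the replicate number as a block there were 2 higher and 0 lower, and 4 lower when GC and length offsets were added. The labels give no pairing by number. The correlations of same-numbered deviations were 0.0845, -0.111, 0.0836 and 0.115, and replicates 1 and 3 at 6 months, but not 2 and 4, correlated best with their own number. These values cannot settle whether libraries of the same number share a batch.

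In controls DESeq2 gave 4 higher and 3 lower (the same with the narrower adjustment), no filter 1 and 4, the fit without muscle-bearing libraries 1 higher, and leaving out 1 library 0 to 2 in each direction. For the difference of the age changes DESeq2 gave 1 higher, no gene set apart 1 lower, and leaving out 1 library 0 higher and 0 to 4 lower. Fstl1 reversed to 0.14 (adjusted p = 0.999) without replicates 2 and 3. Of 24 alternatives, Atp6v0d2 kept its call in 18 with a log2 fold change of 2.61 to 2.92, and Gpnmb in 13 with 1.70 to 2.03. Most of these alternatives adjusted p over all tested genes, the set-apart ones included, and many only left out 1 library. They are thus not independent of each other or of the main fit. The 6-month transgenic group holds 4 libraries, of which 2 carry ganglion transcripts.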
